A study of Mus musculus with 2 samples.

Results

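The 10 genes followed here, Vcam1, C1qa, C1qb, C1qc, Adgre1, Cd68, Mrc1, Axl, Mertk and Siglec1, are genes of the central macrophage of the erythroblastic island. They were taken by name, with no signal value in the rule, out of 20660 genes that could be named on the array, and every probe whose RefSeq accession belongs to one of them was used. Of the 10, 9 had a named probe, with 12 probes between them, and no probe on the array could be named for Cd68. The RNA came from pre CFU-E, erythroid progenitors of bone marrow sorted as cells that carried c-Kit, endoglin and CD150, were low for CD41 and low or negative for FCγR, and lacked Sca1 and lineage markers, so that the values are those of macrophage transcripts in a population sorted for another cell type. Both groups were C57BL/6 mice of 8 to 12 weeks that had received 5-FU, a drug that kills dividing marrow cells, in a single injection of 120 mg/kg and were sacrificed on day 8. One group was WT and the other ESAM-KO, that is, lacking the endothelial cell-selective adhesion molecule, a junction protein also found on hematopoietic stem cells. Marrow of 3 mice was pooled for each genotype and measured on 1 Agilent array, so there is neither an SD nor a p-value for any of them, and genotype, pool, sort and amplification cannot be told apart. No array of untreated mice was analyzed here.

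Erythroblasts mature in contact with a central macrophage, which holds them, supplies iron, and engulfs the nuclei they expel. The macrophage holds them through surface proteins such as VCAM-1, which binds the integrin α4β1 of the erythroblast, and is recognized by the adhesion receptor Adgre1 and the sialic acid receptor CD169 (Siglec1). Dead cells and expelled nuclei are taken up through bridging proteins and receptors, among them complement C1q and the TAM receptor kinases Axl and Mertk.

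Promoter sequences are shown for C1qb and C1qc, neighboring genes of the C1q cluster that both read brighter in the ESAM-KO pool, C1qc below background. Each is the stretch of 250 bases before the transcript start used in the RefSeq table on GRCm38.p6, 5′ to 3′ on the strand of the gene. That of C1qb lies wholly before the gene, and 22 bases of that of C1qc lie within the span of the gene. Capitals mark GAGGAA on either strand (TTCCTC on the printed one), the core letters of sites bound by PU.1, a transcription factor of myeloid cells that is encoded by Spi1.
C1qb, chr4:136886201-136886450, minus strand: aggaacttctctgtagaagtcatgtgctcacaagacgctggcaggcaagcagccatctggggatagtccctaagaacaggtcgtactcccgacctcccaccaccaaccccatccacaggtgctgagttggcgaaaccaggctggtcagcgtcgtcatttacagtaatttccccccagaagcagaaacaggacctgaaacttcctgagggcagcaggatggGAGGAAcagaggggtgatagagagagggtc
C1qc, chr4:136892915-136893164, minus strand: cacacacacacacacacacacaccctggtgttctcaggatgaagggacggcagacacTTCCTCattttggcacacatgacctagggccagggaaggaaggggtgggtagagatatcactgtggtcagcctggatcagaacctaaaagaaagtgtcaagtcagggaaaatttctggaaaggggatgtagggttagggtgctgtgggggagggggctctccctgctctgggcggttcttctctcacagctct
The table held a promoter for 6 of the members, also Axl, Cd68, Mrc1 and Mertk. GAGGAA was found in 5 of these 6, all but that of Mertk, and in 23.3% of all 32851 promoters of the same length. For Axl, 191 of the 250 bases lie within the span of the gene, and its match is among them. AGATAA on either strand, a core recognized by GATA factors, was found in 0 of the 6 and in 9.99% of all promoters. These matches describe letters and are no evidence of binding.

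Signals are processed intensities, the scanner software's brightness of a spot after its background is taken off, each given ± the software's own error, which covers the spot and not the mice. A probe was called well above background by the software's flag, and the dimmest such probe had a signal of 12.6 (WT) or 13.2 (ESAM-KO). Log2 ratios are ESAM-KO over WT after each array was divided by its 75th percentile, a step that lowers all of them by 0.32. Where only one array was well above background, the ratio is a bound, set against the higher of that floor and the probe's own signal on the dim array. Of the 9 members with a probe, 5 had a ratio, 4 of them measured on both arrays and 1 as a bound. By the study's criterion of 2-fold, 2 members were higher in ESAM-KO (C1qa and Axl), 1 was lower (Vcam1) and 2 were within 2-fold (C1qb and Siglec1). Among the 14136 named genes with a ratio, 15.4% were past 2-fold, 6.99% higher and 8.43% lower. The targeted gene, Esam, gave 27.4 ± 3.74 with WT and 20.6 ± 3.38 with ESAM-KO RNA, a log2 ratio of -0.73 that was within 2-fold, and whether its probe lies in the deleted part of the gene is not known here. The members were dim, with mean signals over both arrays between 13.9 and 127, and among the named genes in that range 24.8% were past 2-fold. The median log2 ratio was 0.16 over the 4 members measured on both arrays and -0.02 over the 12615 genes so measured.

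**Figure D1:**
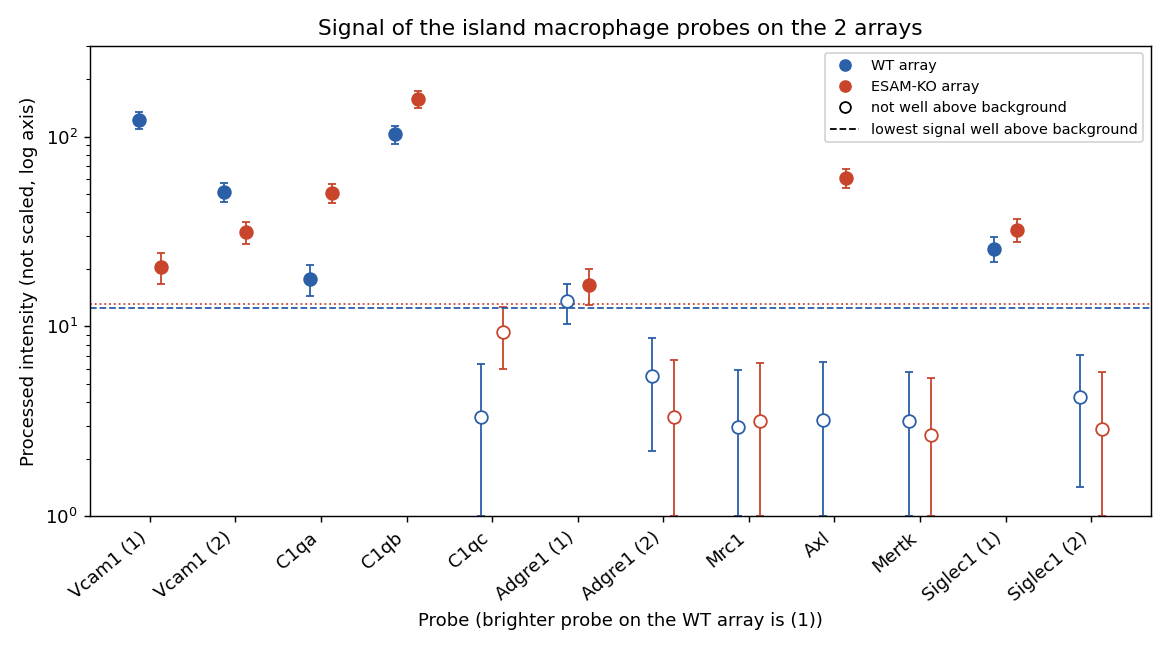
Processed intensity, not scaled, of each probe of the island macrophage genes on the WT array (blue) and the ESAM-KO array (red), on a log axis; bars are the scanner software's error, drawn down to 1 at the lowest, and open symbols were not well above background. The 2 Vcam1 probes read lower on the ESAM-KO array, and C1qa and Axl read higher. C1qc, Mrc1, Mertk and the dimmer probes of Adgre1 and Siglec1 lay below both floors (dashed and dotted lines, 12.6 and 13.2).

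Vcam1 was the member that was lower in ESAM-KO. VCAM-1 is an immunoglobulin-family protein that is also found on endothelial and stromal cells of marrow. The brighter Vcam1 probe (NM_011693) read 121 ± 12.5 with WT RNA and 20.6 ± 3.86 with ESAM-KO RNA, a log2 ratio of -2.88 with a software error of 0.31. The dimmer probe of the same transcript read 51.1 ± 5.80 and 31.2 ± 4.23, a log2 ratio of -1.03 with an error of 0.25. Both probes were thus lower in ESAM-KO, by 7.36-fold and 2.04-fold, but the 2 disagreed on the size by 1.85 on the log2 scale. That gap was wide for the array, since it was smaller for 94.3% of the 3056 genes with at least 2 probes measured on both arrays, whose median gap between the 2 brightest was 0.41. Of the 12615 genes measured on both arrays, 57 had a log2 ratio at or below that of the brighter probe, and 7.37% were lower past 2-fold. The dimmer probe was within 2-fold without scaling, at -0.71, and with normexp background correction, at -0.46. Summed over 11 neutrophil genes, signal was lower in ESAM-KO as well, at 59981 and 10099, and the part of such cells in the Vcam1 difference was not tested. In bulk RNA, fewer cells of a type and less RNA per cell cannot be told apart.

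The partners of VCAM-1 on the erythroid side were detected in both pools and within 2-fold. Itga4, the α4 chain, read 474 ± 47.5 in WT against 722 ± 72.2 in ESAM-KO, for a log2 ratio of 0.29, and a further probe gave -0.04. Itgb1, the β1 chain, was at -0.26 by the brighter probe and at 0.27 by a further one, on the log2 scale. The 2 chains therefore had no probe past 2-fold, whereas both Vcam1 probes were.

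The complement chains were brighter and not dimmer in ESAM-KO, by 1 measured value past 2-fold, 1 within it and 1 probe below background. C1qa, C1qb and C1qc encode the A, B and C chains that together form C1q, which tags dead cells and immune complexes. C1qa (NM_007572) read 17.7 ± 3.31 with WT RNA and 50.3 ± 5.82 with ESAM-KO RNA, a log2 ratio of 1.19 with an error of 0.32. This was past 2-fold, as were 5.22% of the genes measured on both arrays in the same direction, and 3.38% had a log2 ratio as high or higher. C1qb (NM_009777) read 103 ± 10.7 and 157 ± 16.1, a log2 ratio of 0.30 with an error of 0.21. It was within 2-fold, and without scaling it was at 0.62.

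C1qc (NM_007574) has a ratio for neither direction, because its probe failed the background flag in both pools. The probe was printed as 10 spots, which repeat the measurement on one array but share its RNA. On the WT array the spots read between 2.74 and 7.44, with a median of 2.95, and on the ESAM-KO array between 5.08 and 20.7, with a median of 10.5. Every one of the 10 spots was brighter on the ESAM-KO array, with and without scaling, although the ranges overlap. Only 1 spot was well above background, the brightest on the ESAM-KO array, and that one carried the software's outlier flag. How often other dim probes were brighter in every spot was not counted. Over all spots of the array, 61.1% were well above background with ESAM-KO RNA and 57.3% with WT RNA. Of the named genes with a bound, 63.1% were higher in ESAM-KO. Among the probes with 10 spots and a mean signal from 1 to 15, the spots of one probe had a median SD of 0.58 on the log2 ratio, compared with 0.31 from 15 to 50 and 0.17 from 50 to 200.

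**Figure D2:**
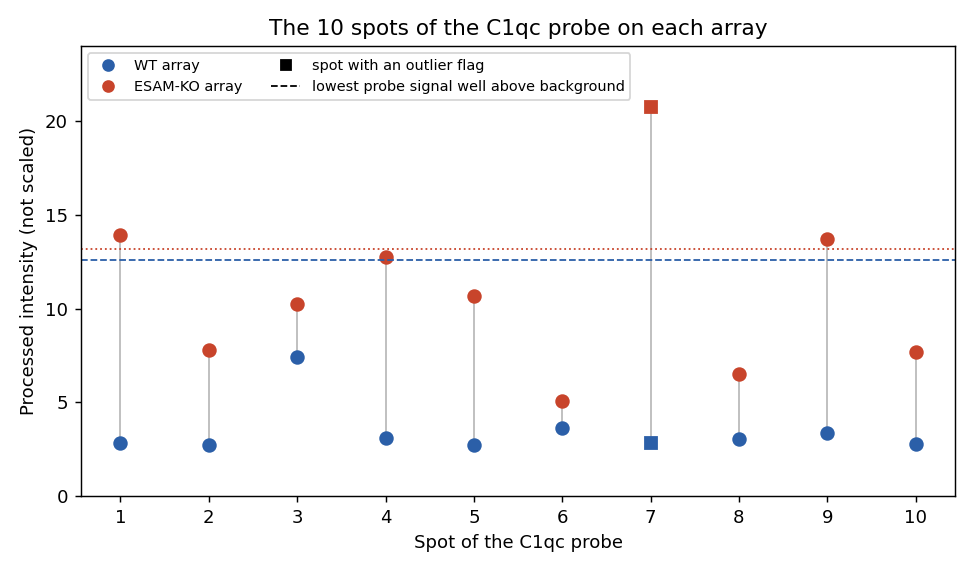
Processed intensity, not scaled, of each of the 10 spots of the C1qc probe on the WT array (blue) and the ESAM-KO array (red), joined by spot; the square marks the spot left out for its outlier flag. In all 10 spots the ESAM-KO value lies above the WT value, most of them under the lowest probe signal well above background (dashed, WT; dotted, ESAM-KO).

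Of the TAM receptors, kinases that bind dead cells through the bridging proteins Gas6 and protein S, Axl stood apart. Its single probe (NM_009465) read 3.22 ± 3.23 with WT RNA, which is within its own error of 0, and 60.3 ± 6.84 with ESAM-KO RNA. Axl thus exceeded WT by at least 3.85-fold, a log2 bound of 1.94. Of the 1521 named genes with a bound, 38.8% were past 2-fold in either direction, 21.6% were higher past 2-fold, and 5.65% had a bound at least as high as that of Axl. Mertk (NM_008587), the TAM receptor of resident macrophages, read 3.18 ± 2.57 and 2.67 ± 2.68, below the floor on both arrays. Tyro3, the remaining TAM receptor, read 29.4 ± 4.04 and 34.1 ± 4.46 at its brighter probe, a log2 ratio of -0.11. The ligand genes were measured as well. Gas6 read 75.6 ± 7.97 in WT against 130 ± 13.3 in ESAM-KO, for a log2 ratio of 0.47, and Pros1, which encodes protein S, was at least 1.43-fold higher, with 9.69 ± 2.89 and 22.4 ± 3.64. Gas6 was within 2-fold, and the bound of Pros1 did not reach 2-fold.

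The genes whose proteins define tissue macrophages were dim or not detected. Siglec1 (NM_011426), the gene of CD169, read 25.6 ± 3.86 in WT against 32.3 ± 4.43 in ESAM-KO by the brighter probe, for a log2 ratio of 0.02 with an error of 0.29. Its other probe read 4.23 ± 2.80 and 2.87 ± 2.88 and fell below the floor in both pools. Adgre1 (NM_010130), the standard surface marker of mouse macrophages, read 13.6 ± 3.25 and 16.4 ± 3.52 at its brighter probe, well above background in ESAM-KO alone. Its signal relative to the 75th percentile was slightly lower there than in WT, so no bound could be given, and its other probe read 5.47 ± 3.26 and 3.33 ± 3.34. Mrc1 (NM_008625), the mannose receptor, read 2.95 ± 2.96 and 3.18 ± 3.19, each as large as its error. The macrophage markers thus did not appear as a whole in these arrays, since Mrc1 and Mertk were below the floor on both arrays and Adgre1 was not well above background in WT, while Siglec1, C1qa and C1qb were dim but detected. The 10 genes are for this reason described one by one and not as a measure of macrophages.

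Of 18 other genes of the island macrophage, all with a named probe, 12 had a ratio and 2 of these were past 2-fold, 1 higher and 1 lower, beside 15.4% of all named genes with a ratio. Itgav, the integrin αv chain that binds ICAM-4 on erythroblasts, exceeded WT by at least 2.83-fold, with 8.13 ± 3.21 and 44.4 ± 5.48, and its other probe was at least 3.57-fold higher. Sirpa, the receptor for the CD47 signal of living cells, read 76.8 ± 8.09 and 13.7 ± 2.98, a log2 ratio of -2.80. Slc40a1, the iron exporter ferroportin, had a log2 ratio of 0.81, and the scavenger receptor genes Cd163, Vsig4 and Timd4 were below the floor on both arrays. Maea, whose protein is called erythroblast macrophage protein, read 1032 ± 103 and 1269 ± 127, a log2 ratio of -0.02. The list's median log2 ratio was -0.25. The list also holds Epor and Klf1, at -0.10 and -0.32, which are counted again among the erythroid genes below. Maea is counted again among the adhesion genes of the erythroblast side. The part of erythroid RNA in these values was not tested.

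On the erythroblast side, 0 of 12 adhesion genes were past 2-fold, and all 12 were measured on both arrays. Among all named genes so measured, 12.6% were past 2-fold. All 12 were also brighter than the members with a ratio, whose mean signals reached 127. Icam4, the red cell ligand of αv integrins, had a log2 ratio of 0.12, and the values of the list lay between -0.59 and 0.29, with a median of 0.03.

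The list of TAM receptors, ligands and uptake genes, which includes Axl, Mertk and Itgav, was split. Of its 20 genes, 17 had a ratio, 3 were higher and 3 lower past 2-fold, and the median log2 ratio was -0.01. Among all named genes with a ratio, 15.4% were past 2-fold. Of the 17 ratios 6 were bounds, and 38.8% of all named genes with a bound were past 2-fold. The higher ones, Axl, Itgav and the scavenger receptor gene Stab2, were all bounds, and that of Stab2, at least 2.02-fold, no longer reached 2-fold with median scaling, quantile normalization or normexp. The lower ones were Cd36, Stab1 and the cholesterol exporter gene Abca1. Cd36, a receptor for lipids and dead cells, read 354 ± 35.5 and 16.7 ± 3.35, a log2 ratio of -4.72, Stab1 was at least 4.09-fold lower and Abca1 was at -1.30. Among 20 complement genes, C1qa and C1qb included, 11 had a ratio, 2 were higher and 1 lower past 2-fold, with a median of -0.17. Besides C1qa these were Cd93, a surface protein of stem, endothelial and myeloid cells once described as a C1q receptor, which was at least 8.27-fold higher, and the C3a receptor gene C3ar1, at -1.36.

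**Figure D3:**
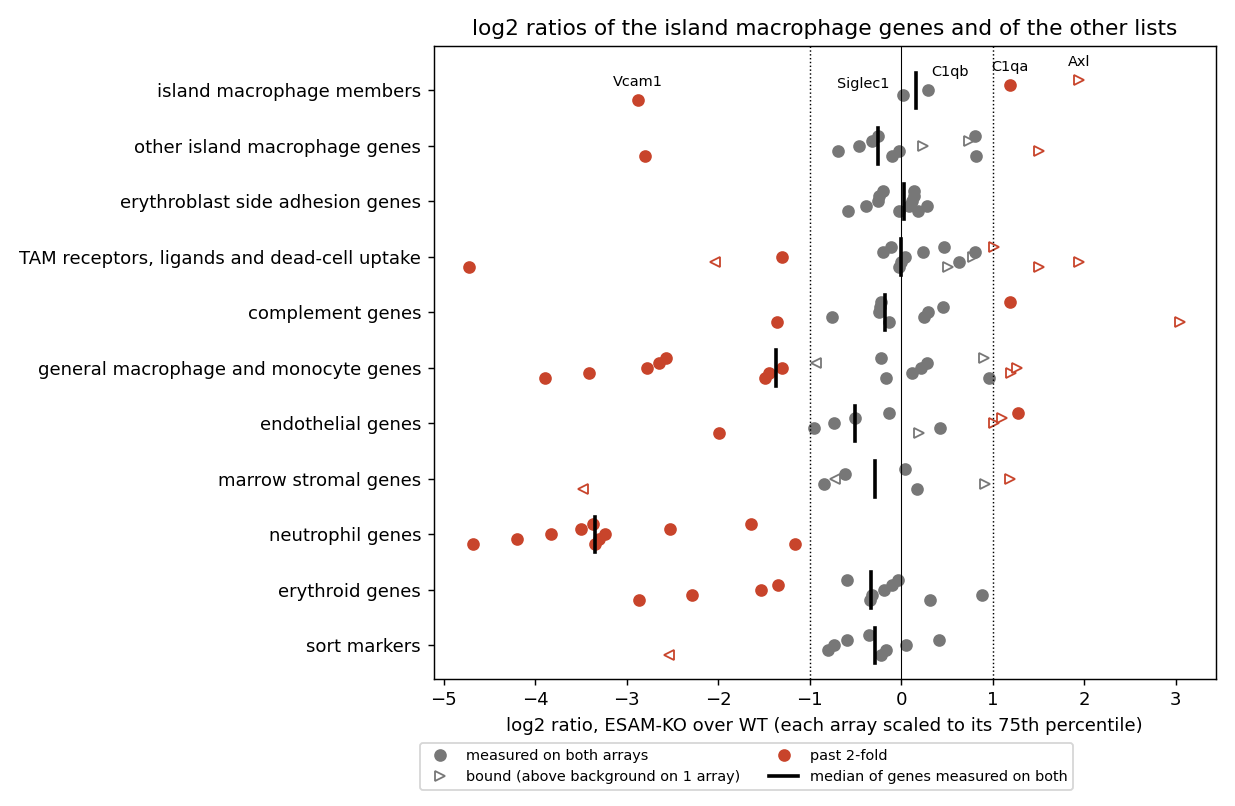
Log2 ratio of ESAM-KO over WT for the brightest probe of each gene with a ratio, by list; circles were measured on both arrays, triangles are bounds, red is past 2-fold (dotted lines) and black bars are medians. The island macrophage genes lie on both sides of 0, from -2.88 to 1.94, whereas all 11 neutrophil genes lie below -1.

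Markers of other cells differed between the arrays as well, and their part in the members' values was not tested. All 11 neutrophil genes with a probe were lower in ESAM-KO past 2-fold, with log2 ratios between -4.68 and -1.16, and their summed signal came to 59981 in WT and 10099 in ESAM-KO. Ctsg, Elane and Mpo, enzymes of neutrophil granules, were at -4.68, -3.30 and -3.82, and Ltf, the iron-binding lactoferrin, was at -4.20. Of 30 general macrophage and monocyte genes, 28 had a probe and 18 a ratio, of which 8 were lower and 2 higher past 2-fold, with a median log2 ratio of -1.37. Among all named genes with a ratio, 8.43% were lower and 6.99% higher past 2-fold. The lower ones include Spi1, which encodes PU.1, with 440 ± 44.1 and 36.9 ± 4.85 and a log2 ratio of -3.89, and the lysozyme genes Lyz2 and Lyz1, at -3.41 and -2.78, all genes that neutrophils express too. The higher ones were the lysosomal protease genes Ctss and Lgmn, at least 2.41-fold and 2.30-fold. The summed signal of this list was 98641 in WT and 97259 in ESAM-KO, most of it from 1 probe of Itgam, and 22266 and 15184 without that gene, of which the lipoprotein gene Apoe made up 12300 and 5625. Csf1r, the receptor that macrophages depend on, was at -0.16 by the brightest probe and at 0.66 by the next, on the log2 scale. Itgam encodes Mac1, which was in the lineage cocktail of the sort, and its 3 probes gave log2 ratios of -0.21, -1.54 and -0.55. The brightest probes of Csf1r and Itgam read 6554 and 76375 in WT and the next ones 63.2 and 270, and whether the former also bind other transcripts was not tested.

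Endothelial and stromal markers, listed because both cell types can carry Vcam1, moved in no single direction. Of 16 endothelial genes, 10 had a ratio, 3 were higher and 1 lower past 2-fold, beside 6.99% and 8.43% of all named genes with a ratio. Cdh5, which defines endothelium, was below the floor on both arrays, Pecam1, shared with blood cells, was at -1.99, Vwf was at 1.28, Tek was at least 2.14-fold higher and Stab2 was at least 2.02-fold higher. The bounds of Tek and Stab2 no longer reached 2-fold with median scaling, at 0.97 and 0.89 on the log2 scale, with quantile normalization, at 0.99 and 0.90, or with normexp. The summed endothelial signal, each array scaled to its 75th percentile, was 1.06 times that of WT in ESAM-KO and 0.880 times without Egfl7, its brightest gene. Of 12 stromal genes, 11 had a probe and 8 a ratio, 1 was higher and 1 lower past 2-fold, and the summed signal in ESAM-KO, scaled likewise, was 0.978 times that of WT and 0.567 times without Col1a2. Pdgfrb was at least 11.1-fold lower. Cxcl12 was at least 2.29-fold higher by its brighter probe, while its other probe was below the floor on both arrays. Lepr was at 0.04 by a dim probe, at 13.7 and 17.6, and its other probes had no ratio. The erythroid identity of the sorted cells was plain on both arrays, with 5959 and 5889 for Gata1, 1149 and 1147 for Klf1, 1175 and 1371 for Epor and 3414 and 3326 for Kit. The other sorting markers Eng and Slamf1 were at -0.80 and 0.05, and Ly6a, which encodes Sca1, was at least 5.79-fold lower. Of 13 erythroid genes, 12 had a ratio and 4 of these were lower past 2-fold, among them the red cell anion exchanger gene Slc4a1 at -2.87 and the heme synthesis gene Alas2 at -1.53.

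Across the other ways of scaling and filtering, the direction of Vcam1, C1qa, C1qb and Axl did not change. Background correction by normexp, whose added constant pulls weak probes toward no difference, ended more calls of members than any other alternative. With it the brighter Vcam1 probe was past 2-fold at -1.36 and the dimmer one was not, at -0.46, C1qa was within 2-fold at 0.45, and the bound of Axl, 0.71, no longer reached 2-fold. Among the named genes of the other lists, Itgav, Stab1, Abca1, C3ar1, Ctss, Lgmn, Vwf, Cxcl12, Ly6a, Tek and Stab2 did not reach 2-fold with normexp either, and Abca1 was at -0.98 without scaling. Siglec1 lay close to 0, between -0.12 and 0.34, and its sign followed the scaling.

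**Figure D4:**
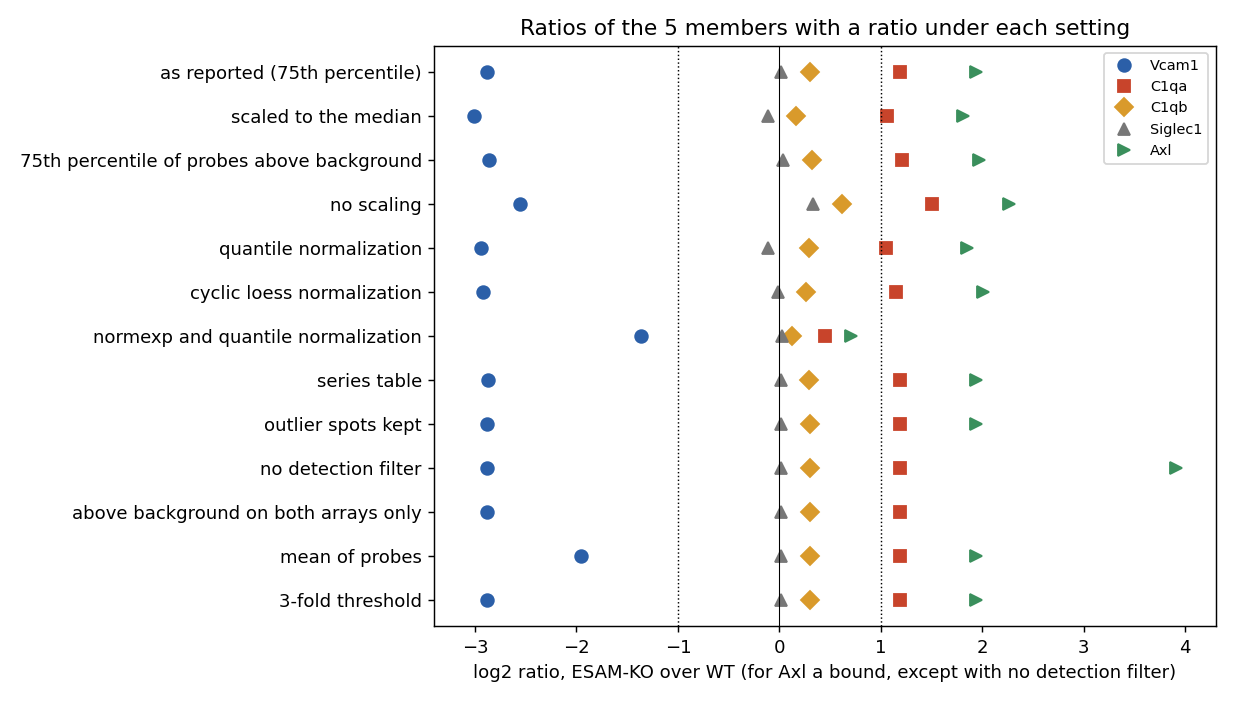
Log2 ratio of ESAM-KO over WT of the 5 members with a ratio, in the setting reported and in each of the 12 alternatives, with dotted lines at 2-fold. Vcam1 lies to the left of -1 in all of them, by its brighter probe or, in 1 setting, the mean of both. With normexp C1qa lies within 2-fold at 0.45 and the bound of Axl, 0.71, stops short of 2-fold; Axl has no value where both arrays had to be above background.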

How the data were processed

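Pre CFU-E sorted after 5-FU were measured on 1 SurePrint G3 array per genotype (WT, ESAM-KO), sharing slide and scan. RNA was amplified with the Ovation Pico WTA System V2 and labeling used Cy3. What the authors deposited is the intensity of each spot from Agilent Feature Extraction 10.10.1.1 (per the submitters' processing notes), background-subtracted and detrended within the array and not scaled between arrays. A series table with the same intensity to 3 significant digits served as an alternative.

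The log2 intensity minus the 75th percentile of the array over 59305 non-control spots was used. In all, 254 spots with an outlier flag on either array were left out, no spot was saturated, and spots of one probe were averaged. A probe was above background where over 50% of its spots were. The floor is the lowest signal of a probe with every spot flagged so, and no ratio is given where a bound fell under 1-fold. Accessions without versions were matched to RefSeq (GRCm38.p6, names only), which named 27235 probes of 20660 genes. A gene was represented by its probe of highest mean signal. Precision is limited by there being 1 array a genotype, which allows no test.

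The members, the 10 other lists and the counting rules were chosen with earlier results of these data known. The text names all members, the partners of VCAM-1 and the TAM receptors, and from each list the defining markers and genes past 2-fold, up to 3 in each direction. Slc40a1, Cd163, Vsig4, Timd4, Itgam, Apoe, Egfl7 and Col1a2 were chosen after their values were seen, and a few genes of the lists are not reported here by name. The 12 alternatives covered scaling (none, median, quantile, cyclic loess, or the 75th percentile of probes detected on both arrays), normexp (offset 50) on median spot signals, the series table, outlier spots, detection filters, the mean of probes and a 3-fold threshold. Python 3.11.15, numpy 2.4.6, pandas 2.3.3, R 4.3.3 and limma 3.58.1 were used, and the counting was tested on simulated data.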

Additional observations from a re-analysis of the deposited data

How the results depend on the processing

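The number of members past 2-fold, 3, was between 2 and 4 under 11 of the 12 alternatives and 1 with normexp and quantile normalization. Members higher past 2-fold, 2, numbered 0 with normexp and 1 each at 3-fold and with detection required on both arrays, where Axl has no value. With no detection filter the number rose, because C1qc, whose probe failed the background flag on both arrays, was then past 2-fold. Members lower past 2-fold stayed at 1. The median log2 ratio of the members, 0.16, was 0.48 without scaling, which moves all ratios alike. The percent of named genes past 2-fold, 15.4%, was 5.04% with normexp and 5.81% at 3-fold. Genes of the other lists higher past 2-fold, 8, numbered 17 without scaling, 15 with no detection filter, and 1 each with normexp, with detection on both arrays and at 3-fold, while those lower past 2-fold, 31, lay between 23 and 35. Normexp shrinks dim probes by its offset, and the filter and threshold act on the counts by construction. Of 59 values of single members under the alternatives, 3 no longer reached the fold threshold (C1qa and Axl with normexp, C1qa at 3-fold) and 0 changed the sign of a member past 2-fold. No paired analysis was possible because only 1 array per genotype was analyzed here, and no array could be left out. Weak signal limits the account of C1qc, Adgre1, Mrc1 and Mertk.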
